A study of Mus musculus with 2 samples.

Results

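The nuclei described here came from glutamatergic neurons of the mouse thalamus that carried Lypd6b together with Hpse2, Htr1f, Ctxn3 or Sycp2l. They were selected on the unique molecular identifiers (UMIs) measured for these genes in each nucleus, so the levels of these genes in them are a description of the choice and not a result. A nucleus was a member when it held at least 1 UMI of Slc17a6 or Slc17a7, none of Gad1 or Gad2, at least 1 of Lypd6b, at least 4 over the 5 markers with at least 3 of the 5 detected, and none of Col12a1. The rule was met by 804 of 38150 nuclei, 331 in the sham library and 473 in the injury library. Single-nucleus RNA sequencing had been performed on the thalamus of the operated side of female C57BL/6J mice aged 3 months, on day 21 after surgery. In the injury group the sensory and motor cortex had been removed by aspiration through a burr hole, whereas the sham group received the burr hole alone. Each group was 1 library made from the pooled nuclei of 4 mice, with no mark to tell the mice apart. No difference between the groups therefore had a replicate check, no test was run between them, and all intervals below are at 95% and cover counting error only.

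Thalamic glutamatergic neurons send excitatory input to cortex and striatum and load their vesicles mainly through the transporter encoded by Slc17a6. They differ between nuclei of the thalamus in receptors, adhesion molecules and channels, and these differences are used to tell first-order relay, higher-order and midline or intralaminar cells apart. The 5 marker genes have unlike roles. Lypd6b encodes a Ly6 family protein anchored to the membrane that acts on nicotinic acetylcholine receptors. Hpse2 encodes heparanase 2, which binds heparan sulfate without cleaving it, and Htr1f encodes an inhibitory serotonin receptor. Ctxn3 encodes a small membrane protein of the cortexin family, and Sycp2l a protein related to the synaptonemal complex that is known from oocytes.

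The promoter sequences of Sycp2l, its neighbour Gcm2, Hpse2 and Htr1f are shown because 3 of them are genes of the rule and Gcm2 was a leading gene outside it. Each run covers 250 bases before and 50 bases after the start of the gene in RefSeq on GRCm38.p6, 5′ to 3′ on the strand of the gene. They lie at chr13:41114169-41114468 (plus strand), chr13:41109939-41110238 (minus), chr19:43388306-43388605 (minus) and chr16:65105735-65106034 (minus), in that order. Capitals mark the letters CTTTGA, the core bound by TCF and LEF factors, searched on both strands.
Sycp2l: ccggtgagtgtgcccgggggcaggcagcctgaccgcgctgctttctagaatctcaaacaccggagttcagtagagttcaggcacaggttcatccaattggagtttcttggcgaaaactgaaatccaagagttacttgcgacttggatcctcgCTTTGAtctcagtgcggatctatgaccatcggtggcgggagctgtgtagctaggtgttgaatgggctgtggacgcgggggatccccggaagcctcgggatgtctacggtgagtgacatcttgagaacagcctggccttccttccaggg
Gcm2: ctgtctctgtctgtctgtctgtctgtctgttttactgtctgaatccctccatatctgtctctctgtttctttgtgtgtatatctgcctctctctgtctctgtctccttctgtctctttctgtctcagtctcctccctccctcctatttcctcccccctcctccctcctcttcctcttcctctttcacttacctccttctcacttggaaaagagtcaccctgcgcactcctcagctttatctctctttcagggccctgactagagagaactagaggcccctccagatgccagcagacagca
Hpse2: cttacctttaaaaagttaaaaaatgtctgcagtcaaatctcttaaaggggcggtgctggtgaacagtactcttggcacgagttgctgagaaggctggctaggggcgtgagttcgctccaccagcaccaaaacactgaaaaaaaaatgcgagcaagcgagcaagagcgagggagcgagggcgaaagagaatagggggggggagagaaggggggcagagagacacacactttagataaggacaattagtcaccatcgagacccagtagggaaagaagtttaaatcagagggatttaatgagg
Htr1f: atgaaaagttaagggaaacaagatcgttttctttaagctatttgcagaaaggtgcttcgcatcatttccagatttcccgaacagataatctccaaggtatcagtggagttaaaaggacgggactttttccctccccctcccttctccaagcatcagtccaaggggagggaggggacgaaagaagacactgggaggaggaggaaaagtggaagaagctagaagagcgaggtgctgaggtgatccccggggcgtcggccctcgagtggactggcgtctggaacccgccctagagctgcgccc
The core was found 1 time in the Sycp2l promoter, on the strand of the gene, and these letters were absent from the other 3 windows. Of all 32851 promoters in the same set, 16.0% held it on either strand, and 13.6% held TATAAA, which was absent from all 4 windows. Of the 25 marker and leading genes of these nuclei, 11 had an entry in the promoter set.

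Member nuclei were deep. Their median was 11740 UMIs and 3927 genes in the sham library and 12039 UMIs and 3868 genes in the injury library, against 9094 and 9302 UMIs in the other glutamatergic nuclei. They held 4279406 and 6193593 UMIs in all. A member needed at least 4 marker UMIs, so greater depth follows in part from the rule. Glutamatergic nuclei chosen by Col12a1 and Ror1 had medians of 10947 and 11840 UMIs. Those chosen by Nox4 and Adgrg6 had medians of 12403 and 14645 UMIs. Over all nuclei the medians were 7190 and 6810 UMIs, and 101 barcodes occurred in both libraries, none of them as a member in both. Snap25, a pan-neuronal gene, was detected in 330 of 331 sham and 467 of 473 injury members. Tcf7l2, a transcription factor that marks thalamic glutamatergic neurons, was detected in 318 (96.1%) and 451 (95.3%) of them. Of 33 transcription factors of neighbouring regions and cortex, Ebf1 and Tle4 reached 50 UMIs and the other 31 did not. In oligodendrocyte nuclei, which had medians of 1684 and 1853 UMIs, Snap25 was detected in 16.7% and 18.02% and Tcf7l2 in 20.8% and 21.0%. On the CPM scale Snap25 was at 824 and 702 in members against 180 and 173 in oligodendrocyte nuclei, and Tcf7l2 at 464 and 456 against 240 and 232. Of 6 markers of the habenula, Nwd2 gave 2574 of 2625 UMIs in sham and 3144 of 3199 UMIs in injury members, and Tac2, Chat, Gpr151 and Pou4f1 had at most 7 UMIs each in a library. Nwd2 was at 601 and 508 CPM in members against 493 and 689 CPM in other glutamatergic nuclei.

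Each marker differed in how it was spread over the member nuclei (the plot of marker UMIs per nucleus). Htr1f was detected in 328 of 331 sham and 470 of 473 injury members, with medians of 6 and 7 UMIs, although the rule did not require it by name. Ctxn3 was detected in 75.2% and 75.3%, Sycp2l in 45.0% and 46.9%, and Hpse2 in 36.6% and 41.6%. In other glutamatergic nuclei these shares were 16.8% and 19.9% for Htr1f, 1.39% and 1.81% for Ctxn3, 0.695% and 0.738% for Sycp2l, and 2.02% and 2.52% for Hpse2. Lypd6b had a UMI in 13.9% and 12.7% of them. In oligodendrocyte nuclei, which should lack these genes, Lypd6b had a UMI in 2.19% and 2.92% and Hpse2 in 0.462% and 0.891%, at medians of 1684 and 1853 UMIs. Members were most of the glutamatergic nuclei with some of these genes and a minority of those with others. They were 72.0% and 76.8% of the nuclei with Sycp2l, 68.2% and 68.5% of those with Ctxn3, 41.7% and 46.2% of those with Hpse2, 22.2% and 29.0% of those with Lypd6b, and 19.0% and 20.7% of those with Htr1f, shares that follow from the rule.

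**Figure D1:**
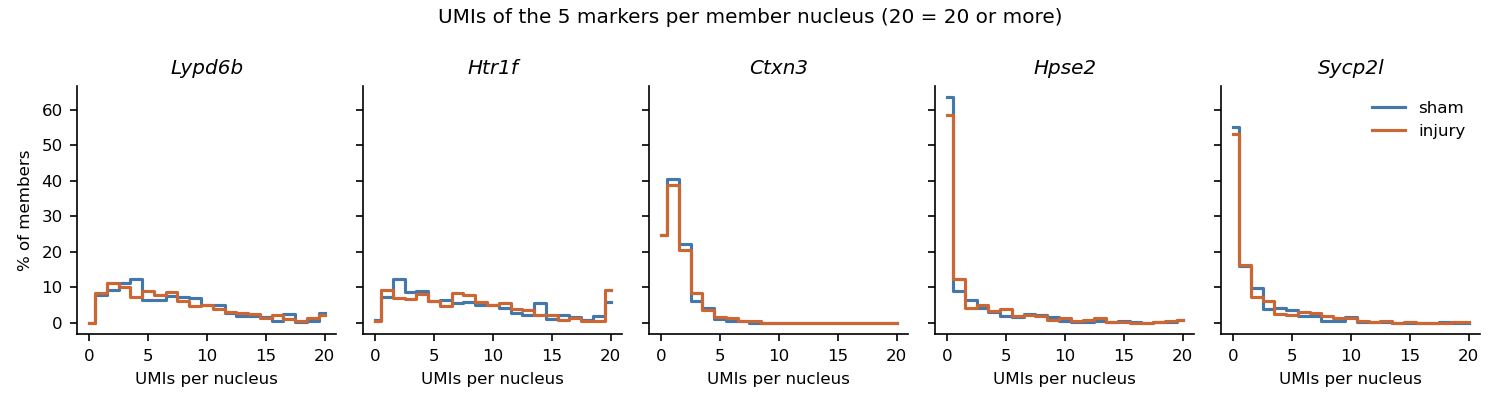
Distribution of UMIs per member nucleus for the 5 marker genes, as a percentage of members on the y axis, for the sham (blue) and injury (orange) libraries; values of 20 or more are placed at 20. Hpse2 was at 0 in 63.4% and 58.4% of members and Sycp2l in 55.0% and 53.1%, while Lypd6b and Htr1f were spread over a wide range in nearly every member.

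At the edge of the rule, 8 sham and 6 injury members had a marker sum of exactly 4 UMIs, and 4 and 6 nuclei just outside had 3 markers at 1 UMI each. Most nuclei near the edge differed by the number of markers: 195 and 242 members had exactly 3 detected, and 212 and 256 nuclei with a sum of at least 4 had only 2. All 5 markers were detected in 49 and 68 members. The marker sum had a median of 16 and 19 UMIs and reached 76 and 87. The Col12a1 criterion left out 5 and 16 nuclei. A further 131 and 171 nuclei met the marker criteria but had no UMI of Slc17a6 or Slc17a7, and 32 and 63 had a UMI of Gad1 or Gad2.

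Member nuclei made up 2.02% (exact binomial interval 1.81 to 2.25) of all nuclei in the sham library and 2.17% (1.98 to 2.37) in the injury library. These intervals overlapped. As a share of glutamatergic nuclei they were 3.81% (3.42 to 4.24) and 4.95% (4.52 to 5.41), and these did not overlap. They overlapped without possible doublets, at 2.96% (2.46 to 3.54) and 3.62% (3.05 to 4.26). That setting left out nuclei with 3 or more UMIs of glial and vascular markers or in the top 5% of UMIs. It kept 118 sham and 139 injury members. P2ry12, Slc4a4 and Pdgfrb each had UMIs in many members and are among these markers. Whether the nuclei left out were doublets was not tested. The intervals also overlapped, narrowly, when members with 3 or more oligodendrocyte marker UMIs were not counted, at 3.70% (3.31 to 4.12) and 4.52% (4.11 to 4.96). All glutamatergic nuclei by the rule were 53.0% of the sham and 43.9% of the injury library. With every nucleus thinned to 5000 UMIs and the rule applied again, the shares of glutamatergic nuclei were 2.30% (1.92 to 2.72) and 3.26% (2.83 to 3.73), and with 4 of 5 markers detected they were 1.57% (1.32 to 1.85) and 2.42% (2.12 to 2.75). Neither pair of intervals overlapped. More member nuclei, fewer other glutamatergic nuclei and a dissection that reached other parts of the thalamus cannot be told apart with 1 pool per group.

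Several genes outside the rule were far higher in member nuclei than in other glutamatergic nuclei. The 20 leading genes were 11.2-fold to 71.2-fold higher, taking for each the library with the smaller fold, and 12 of them were protein-coding. On the log2 scale the lowest of these folds was 3.48. Without possible doublets those of Lypd6 and Gm13480 were under it, at 3.31 and 3.42, while that of AC142448.2 was 5.58. All 20 were also higher in both libraries than in 1044 nuclei chosen by Col12a1 and Ror1 and in 190 chosen by Nox4 and Adgrg6. Levels are given as CPM, the UMIs of a gene summed over nuclei and scaled to the total of the set, and compare 1 gene between sets, not genes with each other. Gcm2, a transcription factor known from the development of the parathyroid gland, was at 15.4 CPM in sham and 11.6 CPM in injury members and at 0.280 and 0.205 CPM in other glutamatergic nuclei. Fzd5, a receptor for Wnt ligands, was at 14.7 and 12.8 CPM against 0.537 and 0.503 CPM. Aldh1a2, which makes retinoic acid, was at 5.37 and 5.81 CPM against 0.199 and 0.339 CPM. That the member level was above the other level in both libraries follows from how these genes were chosen. Their UMIs came from a minority of the nuclei, for Gcm2 from 48 sham and 58 injury members.

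Leading genes with more UMIs included Lypd6, the closest relative of Lypd6b and itself known to act on nicotinic receptors and on Wnt signalling. Lypd6 was at 237 CPM in sham and 246 CPM in injury members, detected in 278 and 385 nuclei, and at 19.0 and 18.5 CPM in other glutamatergic nuclei. Cd59a, an inhibitor of the complement membrane attack complex, was at 114 and 96.9 CPM against 7.19 and 7.48 CPM. Phldb2, which anchors microtubules at the cell cortex, was at 93.9 and 89.6 CPM against 7.34 and 6.35 CPM. Kcng2, a modulatory subunit of voltage-gated potassium channels, was at 41.6 and 57.2 CPM against 2.30 and 3.91 CPM. Pstpip1, a cytoskeletal adaptor, was at 45.6 and 49.2 CPM against 3.39 and 3.97 CPM. The counting interval of the log2 ratio of CPM in members, injury over sham, held 0 for Lypd6, Phldb2 and Pstpip1. This ratio was 0.46 (0.19 to 0.73) for Kcng2 and -0.23 (-0.40 to -0.05) for Cd59a.

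Pdgfrb, the receptor for platelet-derived growth factor B and a usual marker of pericytes, was at 27.1 CPM in sham and 27.4 CPM in injury members, from 68 and 107 nuclei. Other glutamatergic nuclei held 1.91 and 1.85 CPM. Among the 6 vascular markers, Pdgfrb gave 116 of the 124 UMIs in sham and 170 of the 208 UMIs in injury members, and Cldn5 was at 0 in both libraries.

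**Figure D2:**
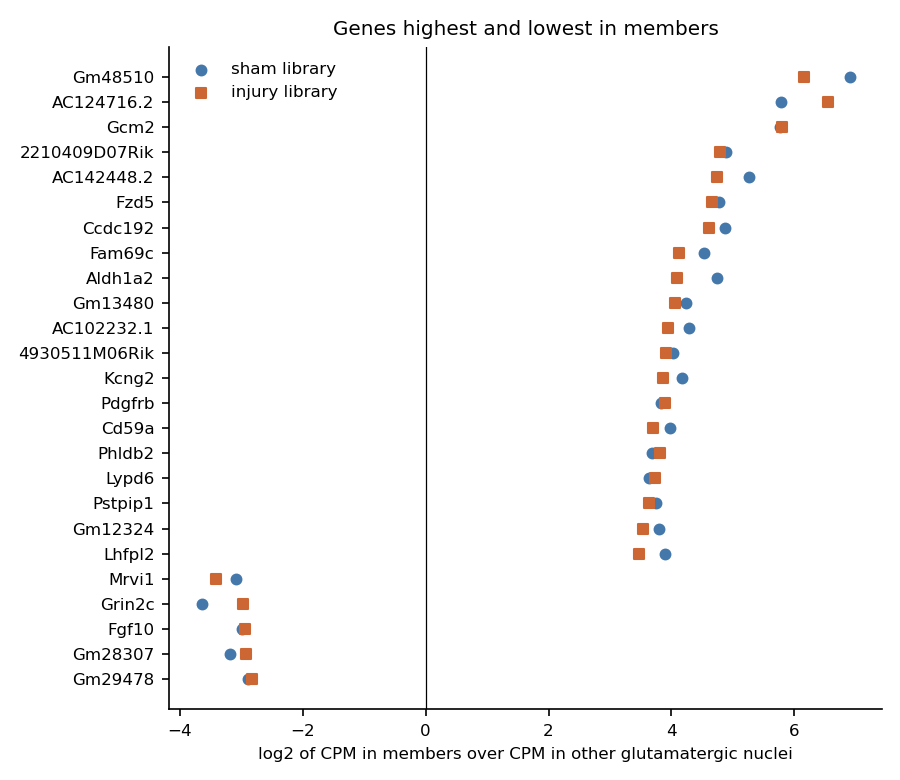
The log2 of CPM in member nuclei over CPM in other glutamatergic nuclei is plotted on the x axis for the 20 leading genes and the 5 lowest genes, in the sham (circles) and injury (squares) libraries. The leading genes lie between 3.48 and 6.90 and the lowest genes between -3.65 and -2.83.

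In GENCODE M21 on GRCm38, 8 of the 20 leading genes lay within 200 kb of a marker gene, and 11 lay within that distance of a marker or of another leading gene. The share of all genes that lie this near to a marker, or on chromosome 18, is not given here. These counts are therefore a description, and the markers near them are genes of the rule. Gm48510, a long non-coding RNA at chr13:41176888-41179030, starts 2.54 kb after the end of Sycp2l on the same strand, and Gcm2 and Sycp2l lie head to head on opposite strands with 3.27 kb between them. AC124716.2 is antisense to Hpse2, and Gm13480 is antisense to Lypd6b. Lypd6 lies 118 kb after Lypd6b on the same strand of chromosome 2. On chromosome 18, which held 8 of the 20, Ccdc192 lies 55.6 kb after Ctxn3, and 4930511M06Rik overlaps both on the opposite strand. Ccdc192 was at 194 and 211 CPM in members against 6.61 and 8.63 CPM, and 4930511M06Rik at 240 and 252 CPM against 14.7 and 16.7 CPM. Oligodendrocyte nuclei held more 4930511M06Rik than members, at 334 and 259 CPM. They also held more of the leading gene Gm12324, at 71.0 and 86.1 CPM against 21.5 and 29.7 CPM in members. Whether the counting used the strand was not given in the sources used here, so reads of overlapping or antisense genes cannot be told apart from those of their partners.

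The genes lowest in members relative to other glutamatergic nuclei were Mrvi1, Grin2c, Fgf10, Gm28307 and Gm29478. Mrvi1, a target of cGMP-dependent kinase at the inositol trisphosphate receptor, was at 5.61 and 5.65 CPM in sham and injury members and at 48.8 and 60.8 CPM in other glutamatergic nuclei. Grin2c, an NMDA receptor subunit, was at 2.80 and 5.01 CPM against 36.6 and 39.9 CPM. The growth factor gene Fgf10 was at 3.04 and 3.23 CPM against 25.2 and 25.5 CPM. Its log2 fold was -5.76 without possible doublets and -2.33 after thinning to 5000 UMIs. Oligodendrocyte nuclei held 3.77 and 6.87 CPM of Mrvi1, 2.69 and 9.36 CPM of Grin2c and 3.23 and 5.62 CPM of Fgf10. These nuclei were far shallower than members, so a similar CPM does not mean a similar number of UMIs per nucleus. Whether the few UMIs in members were background was not tested.

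Genes that act on heparan sulfate, the sugar bound by heparanase 2, were on both sides. Of 26 outside the rule with at least 50 UMIs, 7 were at least 1.5-fold higher in members than in other glutamatergic nuclei in both libraries and 5 at least 1.5-fold lower, where these shares were 4.67% and 5.99% of all genes. The rule was set on this contrast, so the counts are a description. Hs3st4, a sulfotransferase, was at 1475 CPM in sham and 1553 CPM in injury members and at 202 and 255 CPM in other glutamatergic nuclei. Sulf1, an extracellular sulfatase that removes 6-O-sulfate, was at 197 and 170 CPM against 37.9 and 41.5 CPM. The core protein gene Gpc6 was at 1339 and 1339 CPM against 620 and 618 CPM, whereas Gpc5 was at 191 and 273 CPM against 373 and 383 CPM. Nuclei chosen by Col12a1 and Ror1 held more Gpc6 than members, at 1578 and 1626 CPM. Those chosen by Nox4 and Adgrg6 held less, at 393 and 444 CPM. The sulfotransferases Ndst3, at 31.3 and 28.3 CPM against 139 and 131 CPM, and Ndst4, at 16.8 and 22.9 CPM against 47.1 and 53.3 CPM, were lower in members, as were Hs6st2, Extl3 and Sulf2. Hpse, the active heparanase, had 0 UMIs in members of both libraries. Over the list of 37 genes, 27 had at least 50 UMIs in members.

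Receptor genes showed a mixed picture. Beside Htr1f, the serotonin receptor gene Htr7 was at 279 and 294 CPM in members against 109 and 106 CPM in other glutamatergic nuclei, while Htr4 was at 21.97 and 24.06 CPM against 42.8 and 60.0 CPM. Chrna7, a nicotinic receptor subunit, was at 12.2 and 13.4 CPM against 24.7 and 27.0 CPM, and Chrm2, a muscarinic receptor, at 240 and 211 CPM against 220 and 173 CPM. Crhr1, a receptor for corticotropin-releasing hormone, was at 17.8 and 27.0 CPM against 5.86 and 6.38 CPM. The opioid receptor genes went opposite ways. Oprk1 was at 25.5 and 16.8 CPM in members against 11.9 and 9.09 CPM, and Oprm1 at 24.1 and 22.1 CPM against 154 and 161 CPM. Nuclei chosen by Col12a1 and Ror1 held more Oprk1 than members, at 32.6 and 28.2 CPM. Those chosen by Nox4 and Adgrg6 held less, at 0.798 and 4.94 CPM. Pdyn, which encodes the precursor of the ligands of the Oprk1 receptor, was at 5.84 and 5.65 CPM against 0.747 and 0.842 CPM.

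Thalamic genes were present at unequal levels. Foxp2, a transcription factor, was at 1568 and 1439 CPM in members against 511 and 469 CPM in other glutamatergic nuclei, and was detected in 329 and 467 member nuclei. Rora, a nuclear receptor of thalamic development, was at 1565 and 1797 CPM against 2541 and 2662 CPM. Ntng1, a netrin-G that marks thalamocortical axons, was at 1346 and 1257 CPM against 3737 and 3228 CPM, and Necab1, a calcium-binding protein, at 36.2 and 52.5 CPM against 299 and 276 CPM. Kcnd2, a subunit of A-type potassium channels, was at 2025 and 1755 CPM against 4175 and 3873 CPM.

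Member nuclei were not uniform. Hpse2 and Sycp2l were both detected in 61 sham and 104 injury members, Hpse2 alone in 60 and 93, Sycp2l alone in 88 and 118, and neither in 122 and 158. With 3 or more Sycp2l UMIs there were 64 sham (19.3%, interval 15.2 to 24.01) and 111 injury members (23.5%, 19.7 to 27.6). None was detected in 55.0% and 53.1%. These subsets were drawn after the values had been seen, and a member without Sycp2l had to hold 3 of the other 4 markers. Of 8270 genes outside the rule with at least 100 UMIs in the subsets, 115 were at least 2-fold higher with Sycp2l in both libraries and 145 at least 2-fold lower. The same split by Hpse2 gave 11 and 25 of 8586 genes. The nuclei with Sycp2l were deeper, at medians of 16001 and 13481 UMIs against 11212 and 12039.

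**Figure D3:**
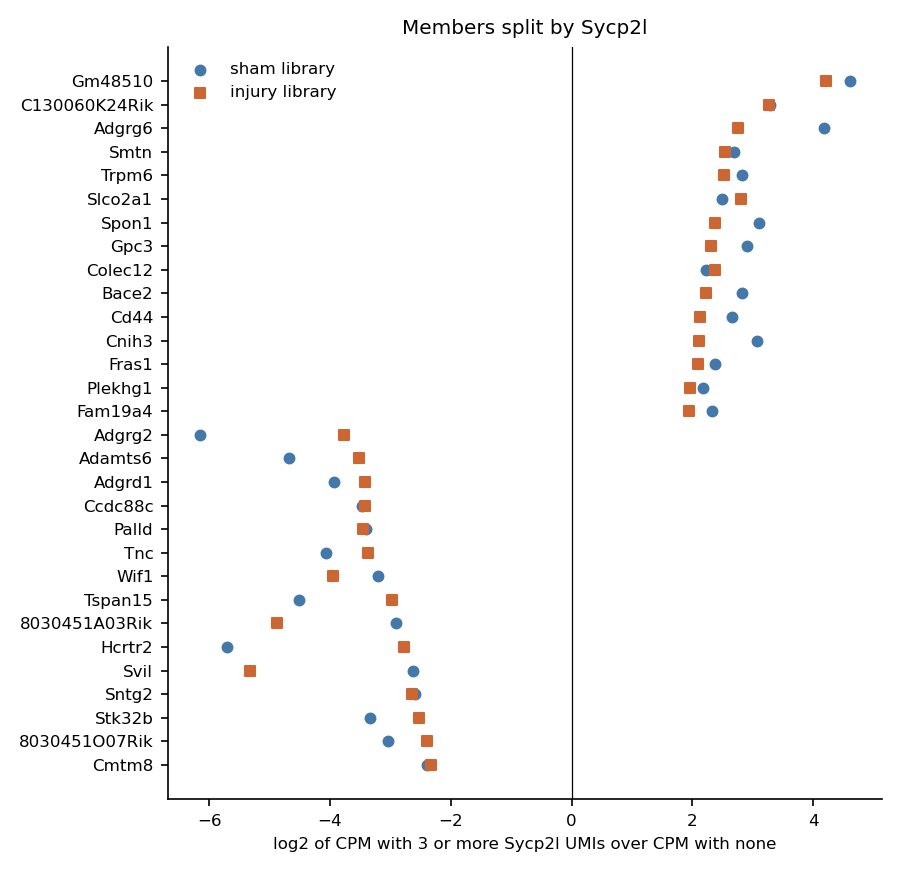
The log2 of CPM in members with 3 or more Sycp2l UMIs over CPM in members with none is plotted for the 15 genes with the largest and the 15 with the smallest ratio, for the sham (circles) and injury (squares) libraries. The genes were chosen by both libraries together, and both points of a gene lie on the same side of 0 by that choice.

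The examples from the Sycp2l split were picked after their values were seen. Spon1, which encodes the secreted protein F-spondin, was at 677 CPM in sham members with Sycp2l and 78.3 CPM in those without, and at 646 and 124 CPM in injury members. Adgrg6, an adhesion receptor, was at 59.2 against 3.08 CPM in sham and 44.6 against 6.47 CPM in injury members. Trpm6, a magnesium channel, was at 129 against 18.04 CPM and 126 against 21.9 CPM. On the other side, Tnc, which encodes the matrix protein tenascin C, was at 2.96 CPM with Sycp2l and 57.6 CPM without in sham members, and at 6.20 and 67.5 CPM in injury members. Adamts6, a secreted protease, was at 3.95 against 113 CPM and 6.20 against 74.3 CPM. Adgrg2 and Adgrd1, also adhesion receptors, had 0 and 1 UMI in sham members with Sycp2l against 79 and 51 in those without. In injury members they had 2 and 4 UMIs against 68 and 96. On the CPM scale Adgrg2 was at 0 against 34.8 in sham and 1.24 against 21.0 in injury members. Adgrd1 was at 0.987 against 22.4 CPM and 2.48 against 29.6 CPM. Hcrtr2, the orexin receptor of type 2, had 0 against 58 UMIs in sham and 6 against 89 UMIs in injury members. On the CPM scale it was at 0 against 25.5 and at 3.72 against 27.4. Gm48510, next to Sycp2l, followed it with 70 against 6 UMIs and 96 against 10 UMIs, or 69.1 against 2.64 CPM and 59.5 against 3.08 CPM.

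The split by Hpse2 was shallower. With 3 or more Hpse2 UMIs there were 70 sham and 119 injury members, and with none 210 and 276. Slc12a8 was at 66.2 CPM in sham members with 3 or more Hpse2 UMIs and 18.7 CPM in those with none, and at 49.3 and 19.4 CPM in injury members. Pld5 was at 305 against 139 CPM and 319 against 127 CPM. Il1rapl2, a synaptic adhesion protein of the interleukin 1 receptor family, was lower with Hpse2, at 28.2 against 137 CPM in sham and 22.3 against 153 CPM in injury members. Alcam, a cell adhesion molecule, was at 43.4 against 169 CPM and 62.4 against 162 CPM. Hcrtr2 had 1 against 51 UMIs and 10 against 81 UMIs, or 1.09 against 18.7 CPM and 6.57 against 21.5 CPM. It was thus lower in members with 3 or more UMIs of Hpse2 or of Sycp2l than in those with none.

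To describe how the injury and sham libraries differed within member nuclei, the ratio of CPM, injury over sham, was computed for the 11318 genes with at least 50 UMIs over both libraries. Its median was -0.03 on the log2 scale. Of these genes, 2.56% (290) were at least 1.5-fold higher in the injury library and 4.19% (474) at least 1.5-fold lower. The markers admitted the members in both libraries, so their ratios are a description of the choice. The log2 ratio was 0.00 (interval -0.08 to 0.08) for Lypd6b, 0.11 (0.04 to 0.18) for Htr1f and 0.08 (-0.10 to 0.25) for Ctxn3. It was 0.14 (-0.01 to 0.29) for Hpse2 and 0.26 (0.09 to 0.42) for Sycp2l. Without possible doublets it was -0.10 for Lypd6b, -0.19 for Hpse2 and 0.94 for Sycp2l. Of the 20 leading genes, none was 1.5-fold higher and 1 was 1.5-fold lower. This was Gm13480, antisense to Lypd6b, with 64 sham and 50 injury UMIs and a log2 ratio of -0.89 (-1.45 to -0.33).

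The 10 genes that stood highest in the injury library were 4921539H07Rik, Prr5l, St18, Mbp, Mog, Zeb2, Zbtb16, Cdh19, 6530403H02Rik and Slc14a2. Mbp, which encodes myelin basic protein, had 63 UMIs in sham and 308 UMIs in injury members, a log2 ratio of 1.76 (1.36 to 2.17). Mog, another myelin protein, had 5 and 45 UMIs, and Prr5l and St18, also found in oligodendrocytes, had 22 and 154 and 33 and 203 UMIs. Markers of oligodendrocytes moved with them. The 8 markers of the list summed to 50.2 CPM in sham and 133 CPM in injury members, all 8 had a UMI in both libraries, and 3 or more of their UMIs were held by 10 sham (3.02%) and 41 injury members (8.67%). In other glutamatergic nuclei the sums were 95.5 and 152 CPM, and oligodendrocyte nuclei were 5.29% of the sham and 9.28% of the injury library.

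Without the members that held 3 or more oligodendrocyte marker UMIs, a choice made after seeing the data, Mbp had 38 and 72 UMIs and a log2 ratio of 0.49 (-0.09 to 1.10). Mog was left with 2 and 1 UMIs. Both genes are on the list that chose these nuclei, so no nucleus kept could hold 3 UMIs of either, and the choice itself lowers them. St18, which is not on the list, had a ratio of 0.48 (-0.44 to 1.45) and Prr5l one of 0.38 (-1.60 to 2.60). The ratios of Zbtb16 and Slc14a2 were as large without these nuclei. Zbtb16, a transcription factor of the zinc finger family, then had 15 sham and 109 injury UMIs, from 11 of 321 and 52 of 432 nuclei, a log2 ratio of 2.43 (1.65 to 3.32), and its ratio in other glutamatergic nuclei was 1.37. Slc14a2, a urea transporter, had 13 and 70 UMIs from 9 and 42 nuclei, a ratio of 2.0 (1.14 to 2.98), and 0.28 in other glutamatergic nuclei. Both ratios of other glutamatergic nuclei are over all of those nuclei, with none left out for oligodendrocyte markers. By contrast, 4921539H07Rik, 6530403H02Rik and Zeb2 were held by few nuclei: 59, 44 and 130 injury UMIs came from 10, 4 and 24 nuclei. Without possible doublets the ratio of Zeb2 was -0.31. In oligodendrocyte nuclei Zbtb16 was at 185 CPM in sham and 420 CPM in injury, against 5.61 and 21.2 CPM in all members. Zeb2 was at 2067 and 2105 CPM in them and Cdh19 at 584 and 576 CPM, while Slc14a2 was at 5.38 and 2.29 CPM. Whether oligodendrocyte RNA had a part in these ratios was not tested.

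Among the 10 genes highest in the injury library without those nuclei were Scube2, Adam12 and Cmss1. Scube2, a secreted protein that helps release Hedgehog ligands, had 100 UMIs in 65 of 321 sham members (20.2%) and 288 UMIs in 152 of 432 injury members (35.2%). Its log2 ratio was 1.10 (0.77 to 1.44), against 0.18 in other glutamatergic nuclei. The ratios of other glutamatergic nuclei in this paragraph are again over all of those nuclei, with none left out for oligodendrocyte markers. Adam12, a membrane-bound metalloprotease, had 35 and 121 UMIs in 25 and 66 members, a ratio of 1.36 (0.81 to 1.95) against 0.28. Cmss1 had 1012 and 2420 UMIs and a ratio of 0.83 (0.72 to 0.94), close to the 0.88 of other glutamatergic nuclei. Over all members, Scube2 was higher in the injury library with 3 or more Sycp2l UMIs (34 and 158 UMIs, log2 ratio 1.54, 1.0 to 2.12) and with none (36 and 103 UMIs, 1.0, 0.44 to 1.59). The level of Scube2 thus differed between the libraries on both sides of the split.

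**Figure D4:**
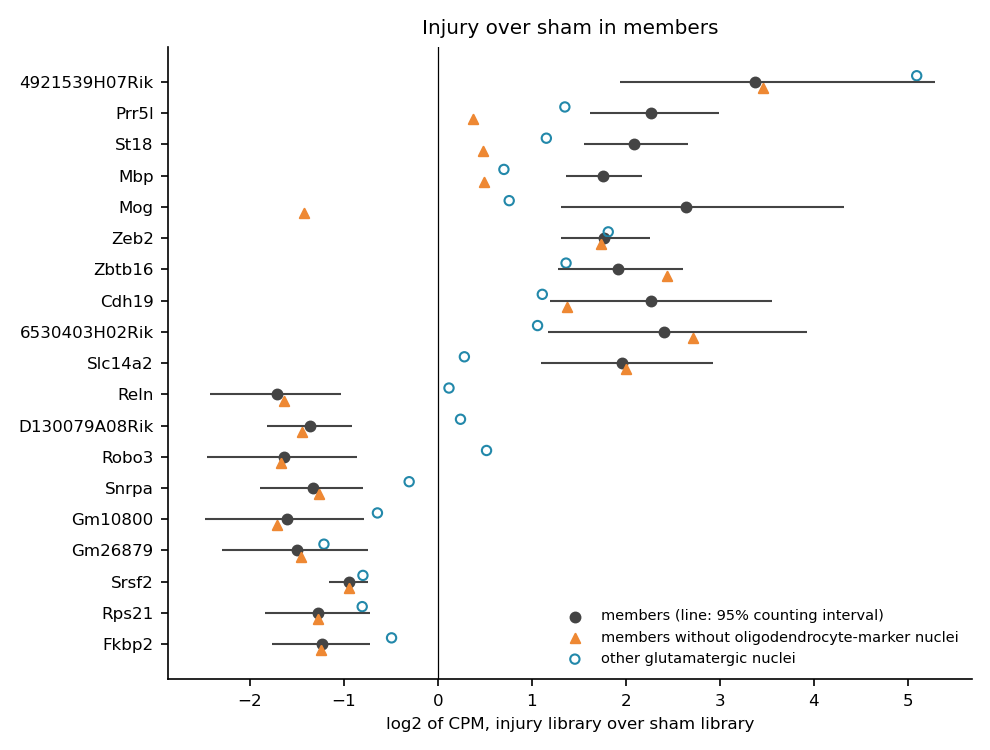
The log2 ratio of CPM, injury over sham, is plotted for genes among the 10 standing highest and the 10 standing lowest in injury members: filled circles with 95% counting intervals for all members, triangles for members without nuclei that held 3 or more oligodendrocyte marker UMIs, and open circles for other glutamatergic nuclei. Without those nuclei Prr5l and St18 moved toward 0, Mbp and Mog were lowered by the choice itself since they are among its markers, and the triangles of the genes on the low side lie within the intervals.

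Among the 10 genes that stood lowest in the injury library were Reln, D130079A08Rik, Robo3, Snrpa, Gm10800, Gm26879, Srsf2, Rps21 and Fkbp2. Some of these were held by few nuclei. Reln, the secreted glycoprotein reelin, had 61 sham and 27 injury UMIs from 12 nuclei in each library, with 28 of the sham UMIs in 1 nucleus, and its log2 ratio of -1.71 became -0.83 without that nucleus and -1.19 without the richest nucleus of each library. With a marker sum of at least 6 UMIs required, the ratio of Reln was -0.30. D130079A08Rik had 117 UMIs in 12 sham and 66 UMIs in 18 injury nuclei. Robo3, an axon guidance receptor, had 45 UMIs in 13 and 21 UMIs in 11 nuclei, a ratio of -1.63 (-2.45 to -0.86). The others were spread more widely. Srsf2, a splicing factor, had 431 UMIs in 230 of 331 sham and 323 UMIs in 224 of 473 injury members, a ratio of -0.95 (-1.16 to -0.74), beside -0.80 in other glutamatergic nuclei. Snrpa, a protein of the U1 spliceosomal particle, had 80 UMIs in 73 and 46 UMIs in 40 members, a ratio of -1.33 (-1.89 to -0.79) beside -0.30.

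Ribosomal protein genes stood out among the lists. Of 77, all with at least 50 UMIs, 34 were at least 1.5-fold lower in injury members, as were 4.19% of all genes, and none was 1.5-fold higher. The median log2 ratio was -0.51 against -0.03 over all genes. Without possible doublets it was -0.27, over the 15 genes that then had at least 50 UMIs. Rps21, a protein of the small subunit, had 75 UMIs in sham and 45 UMIs in injury members, a ratio of -1.27 (-1.84 to -0.72), which was -0.46 after thinning. Together these genes gave 0.144% of the UMIs of sham members and 0.101% of those of injury members. The share was 0.144% and 0.108% in other glutamatergic nuclei and 0.288% and 0.210% in oligodendrocyte nuclei, so it was lower in the injury library in each of these sets. Ribosomal protein genes have many processed copies in the genome, and how reads were divided among them was not given in the sources used here.

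Immediate early genes and axon injury genes with at least 50 UMIs had medians close to those in other glutamatergic nuclei. The few genes past 1.5-fold in the lists that follow stand beside 2.56% higher and 4.19% lower over all genes. Of 22 immediate early genes, which neurons switch on with activity, 8 had at least 50 UMIs, none was 1.5-fold higher, Egr1 and Npas4 were 1.5-fold lower, and the median log2 ratio was -0.24 against -0.22 in other glutamatergic nuclei. Npas4 had 36 sham and 32 injury UMIs, a ratio of -0.70 (-1.44 to 0.02), and Egr1 had 28 and 27, a ratio of -0.59 (-1.40 to 0.23), so both intervals held 0. Below 50 UMIs, Fos had 14 and 4 UMIs, a ratio of -2.34 (-4.40 to -0.67), beside -1.92 in other glutamatergic nuclei. Nr4a2 had 16 and 4 UMIs, a ratio of -2.53 (-4.57 to -0.90), beside 0.10. Of 32 axon injury and stress genes, 17 were measured at that depth, with a median of -0.15 against -0.16 in other glutamatergic nuclei and 2 lower by 1.5-fold, Atf4 and Nefl. Without possible doublets this median was 0.20, over 7 genes, and after thinning the ratio of Nefl was -0.29. Atf4, a transcription factor of the integrated stress response, had 45 and 32 UMIs, a ratio of -1.03 (-1.73 to -0.34). Of 27 neuropeptide genes 4 were measured, with Vgf at 32 and 20 UMIs and Scg2 at 90 and 85 UMIs, both 1.5-fold lower. The ratio of Scg2 was -0.41 with a marker sum of at least 6 UMIs, -0.43 without its richest sham nucleus and -1.07 without possible doublets. The neuropeptide receptor genes had a median of 0.05 over 11 genes, of which Npy1r, Crhr1 and Vipr2 were 1.5-fold higher and Oprk1 1.5-fold lower. After thinning, the ratios of Npy1r and Crhr1 were both 0.48, and without oligodendrocyte-marker nuclei that of Vipr2 was 0.57.

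Synaptic and channel genes were close to level. The median log2 ratio was 0.02 over 23 glutamate receptor genes, 0.12 over 25 postsynaptic scaffold genes, -0.0013 over 37 vesicle release genes, 0.01 over 18 GABA receptor genes and 0.02 over 53 ion channel genes. No glutamate or GABA receptor gene with at least 50 UMIs was past 1.5-fold. Dlgap2, a scaffold protein, was counted 258 times in sham and 613 times in injury members (ratio 0.72, 0.50 to 0.93), beside 0.86 in other glutamatergic nuclei. Without possible doublets, which left 118 sham and 139 injury members, the ratio of Dlgap2 was -0.34, and it was 0.31 after thinning and 0.31 without its richest injury nucleus. Lrrtm2, a synaptic adhesion protein, was counted 64 and 55 times (-0.75, -1.30 to -0.21). Among vesicle genes, Sv2c had 97 and 69 UMIs, a ratio of -1.02 (-1.49 to -0.57), beside 0.07 in other glutamatergic nuclei, and Syt4 and Syt6 were also 1.5-fold lower. Without possible doublets the ratio of Syt4 was -0.017. Of the 53 ion channel genes Kcnh1 and Trpc4 were 1.5-fold higher and Hcn3 1.5-fold lower. These counts, 2 and 1 of 53, were near the 2.56% and 4.19% of all genes, and 3 of the 37 vesicle release genes were 1.5-fold lower. Gria1, an AMPA receptor subunit, had a ratio of 0.21 in members and 0.53 in other glutamatergic nuclei, but the difference between these sets was not tested.

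The lists tied to the marker genes each hold a gene of the rule. It was left out of the medians given here, a choice made after seeing the data. The median log2 ratio was 0.07 over 26 heparan sulfate genes, 0.10 over 4 serotonin receptor genes, -0.14 over 9 acetylcholine receptor and Ly6 genes and 0.23 over 4 synaptonemal genes, and 1 cortexin gene remained. With the genes of the rule these medians were 0.07, 0.11, -0.07 and 0.26. Gpc5 was higher, with 819 and 1691 UMIs and a ratio of 0.51 (0.39 to 0.63), and a ratio of 0.04 in other glutamatergic nuclei. In the injury library 234 of the Gpc5 UMIs came from 1 nucleus, without which the ratio was 0.30. The ratio of Gpc5 was 0.33 with a marker sum of at least 6 UMIs and 0.15 without possible doublets. Sulf2 was 1.5-fold lower, with an interval that held 0 (-1.40 to 0.23). Htr2c was lower by less, with a ratio of -0.20 (-0.29 to -0.10), but its ratio was -0.67 without possible doublets. The thalamic factors and markers had a median of -0.02 over 24 genes with none past 1.5-fold. The median of the remaining lists was -0.02 over 2 transmitter genes outside the rule, -0.06 over 33 translation factor genes, -0.07 over 19 genes for signals to microglia, and -0.05 over 34 axon guidance genes, in which Slit1 was 1.5-fold higher. Without possible doublets the ratio of Slit1 was -0.19.

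**Figure D5:**
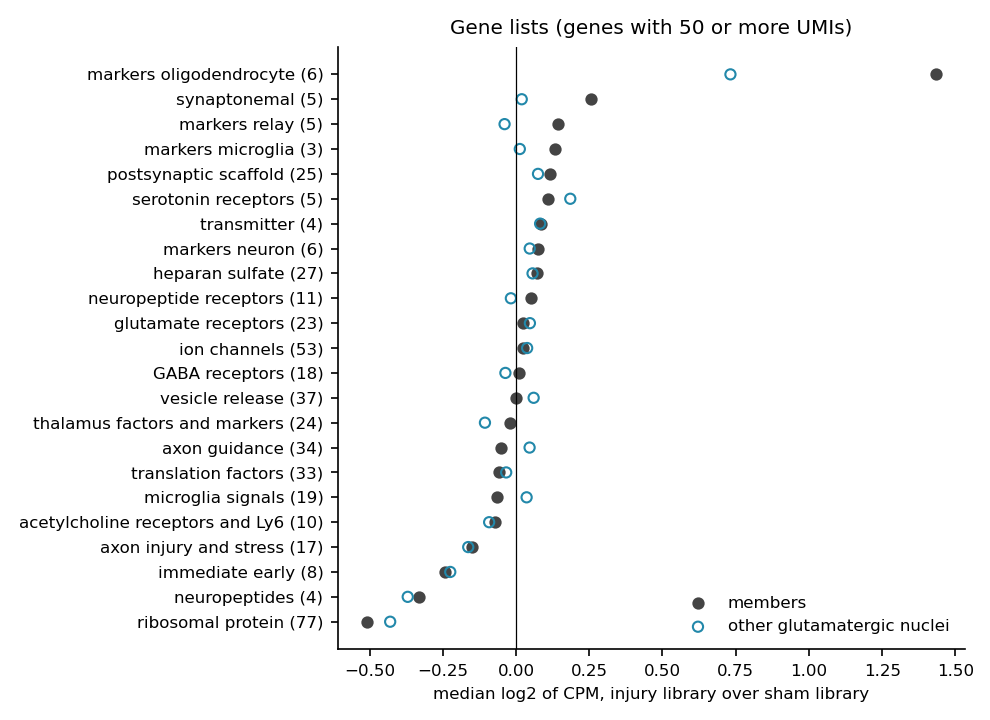
Median log2 ratio of CPM, injury over sham, for each gene list with 3 or more measured genes, in member nuclei (filled) and other glutamatergic nuclei (open); the number of genes with at least 50 UMIs stands beside each name. Most lists lie between -0.24 and 0.26, with neuropeptides at -0.33, ribosomal protein genes at -0.51 and oligodendrocyte markers at 1.43. The medians plotted hold the genes of the rule. That of the synaptonemal list, 0.26, is the ratio of Sycp2l itself, and that of the serotonin receptors, 0.11, is the ratio of Htr1f.

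Markers of other glial and vascular cells in members were given by a few genes. Of the microglial list, 3 genes had at least 50 UMIs, among them P2ry12 and Cx3cr1, with 444 and 704 UMIs for P2ry12, while Tmem119 was at 0 in both libraries and C1qa and C1qb were at 0 in sham members. P2ry12 lies inside Med12l on the opposite strand. Of the astrocyte list, Slc4a4 had 406 and 647 UMIs. Their part in the ratios given above was not tested.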

How the data were processed

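For each group, the authors prepared 1 droplet-based 3′ library (10x platform) from sorted thalamic nuclei, to which each of 4 mice gave the same number. The authors used Cell Ranger 6.0.2 with GRCm38 to obtain counts of UMIs, and the deposited tables hold these raw counts without normalization, for 16390 sham and 21828 injury barcodes and 32285 gene rows, of which 32158 matched GENCODE M21. The annotation release, strand setting and use of intronic reads were not given in the sources used here. Free RNA enters such counts, and reads of overlapping genes may be shared.

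Nuclei with 200 to 7500 genes and at most 2% mitochondrial UMIs were kept, which left out 17 sham and 51 injury barcodes. No doublet caller was run. Glutamatergic nuclei had a UMI of Slc17a6 or Slc17a7 and none of Gad1 or Gad2. Oligodendrocyte nuclei had at least 4 UMIs over 5 oligodendrocyte genes, with 3 of them detected, and no UMI of the 4 transmitter genes. The Col12a1 with Ror1 and the Nox4 with Adgrg6 nuclei were other glutamatergic nuclei with both genes detected and at least 3 UMIs.

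UMIs were summed over nuclei and scaled to the total of the set (CPM). Folds between sets of nuclei carry a prior of 0.5 UMI, and ratios between libraries carry none. Intervals are exact Poisson, exact binomial (Clopper-Pearson) or, for ratios, exact conditional binomial, at 95%, and were checked on simulated data. With 1 library per group no test was possible. The intervals cover neither differences between mice nor those between nuclei.

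The genes named were the 20 with the highest smaller fold and the 5 with the lowest larger fold over other glutamatergic nuclei, the 10 with the highest lower bound and the 10 with the lowest upper bound of the injury over sham ratio, and from each list the genes with most UMIs or farthest from no change. Genes named besides these were chosen after their values were seen, as were the list of ribosomal protein genes and the subsets by Sycp2l and Hpse2. Results for some genes that these rules name are not reported here. The members and lists were chosen with earlier results of these data known. Nuclei with 3 or more oligodendrocyte marker UMIs were left out in an alternative added after the data were seen, as were the genes of the rule from the lists and, gene by gene, the nucleus with most UMIs of the gene in one library or in each. Other alternatives were stricter and looser rules, other minimum counts and priors, TMM factors, the mean of CPM per nucleus, thinning to 5000 UMIs, and leaving out possible doublets. Python 3.11.15 with scipy 1.17.1 and edgeR 4.0.16 (TMM factors only) were used.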

Additional observations from a re-analysis of the deposited data

Results flagged for a closer look

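For 4 of the named genes the injury over sham difference ran in opposite directions in the member nuclei and in the other glutamatergic nuclei, with both counting intervals clear of 0 and the member ratio past 1.5-fold. The member log2 ratio minus that of the other glutamatergic nuclei was -2.15 for Robo3, -1.83 for Reln, -1.60 for D130079A08Rik and 1.18 for Npy1r. With 1 library per group this difference was not tested. Reln, Robo3 and D130079A08Rik came from 12, 13 and 12 sham members. In members with 3 or more Sycp2l UMIs their log2 ratios were 1.328, -0.383 and -0.087, in that order, and each interval held 0. These rest on 1, 9 and 18 sham and 4, 11 and 27 injury UMIs. In members with no Sycp2l UMI the ratios were -2.098, -2.999 and -1.513, with each interval under 0. The difference between these subsets was not tested. Npy1r, a receptor for neuropeptide Y, had 22 sham and 64 injury UMIs. The member ratio fell under 1.5-fold for Reln with a marker sum of at least 6 UMIs, at -0.30, and for Npy1r after thinning, at 0.48. Without possible doublets it was -3.58 for Robo3, -2.47 for D130079A08Rik, -0.77 for Reln and 2.10 for Npy1r. That setting kept only 118 sham and 139 injury members.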

How the results depend on the processing

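No paired analysis was possible because there was only 1 library in each group. Of 279 list medians recomputed under the alternatives, 254 moved by less than a spread set from the counting intervals of the genes, 20 moved by more, and 5 were reversed from a median whose spread did not hold 0. The list medians of this section hold the genes of the rule, and that of the serotonin receptors started from 0.11, the ratio of Htr1f itself. The shares of member nuclei were lowered by the stricter choices. As a percentage of all nuclei they were 0.831 in sham and 1.06 in injury with 4 of 5 markers detected, 1.43 and 1.52 without possible doublets, and 1.14 and 1.43 after thinning. As a percentage of glutamatergic nuclei they were 1.57 and 2.42, 2.96 and 3.62, and 2.30 and 3.26, and 4.52 in injury when oligodendrocyte-marker nuclei were taken out of the members and kept in the denominator. The injury share was the higher one in each pair. The setting without possible doublets drops nuclei with 3 or more UMIs of glial and vascular markers or in the top 5% of UMIs, and kept 118 sham and 139 injury members. P2ry12, with a UMI in 209 sham and 310 injury members, Slc4a4, with 159 and 226, and Pdgfrb, with 68 and 107, are among these markers.

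Genes at least 1.5-fold higher numbered 686 with a minimum of 20 UMIs and 123 with 100, and genes lower numbered 937 and 205, and 264 without possible doublets, where fewer genes were measured. Without possible doublets the median log2 ratio was reversed for serotonin receptors (-0.30), postsynaptic scaffold (-0.00524) and axon injury and stress genes (0.20). It was 0.045 for thalamic factors, -0.31 for acetylcholine receptors and Ly6, 0.12 for translation factors, 0.00509 for glutamate receptors, -0.037 for vesicle release, -0.027 for ion channels, 0.47 for neuropeptide receptors, -0.00540 for microglial signals and -0.27 for ribosomal proteins. After thinning, with 14 sham and 19 injury members under 5000 UMIs left out, it was -0.077 for serotonin receptors (reversed), -0.0049 for microglial signals and 0.038 for neuronal markers. With no filter on low counts it was 0.21 for serotonin receptors, -0.41 for axon injury and stress genes and 0.037 for microglial signals (reversed). With TMM factors it was 0.060 for glutamate receptors, 0.033 for vesicle release, 0.059 for ion channels and -0.015 for axon guidance. With the mean of CPM per nucleus it was 0.026 for thalamic factors and 0.000694 for glutamate receptors. Without oligodendrocyte-marker nuclei the median of the oligodendrocyte markers was 0.29.

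Single genes reversed as follows. Without possible doublets the log2 ratio was -0.31 for Zeb2, -0.99 for Necab1, -0.34 for Dlgap2, 0.012 for Csmd3, -0.19 for Slit1 and 0.88 for C6. After thinning it was -0.30 for Necab1 and 0.067 for C6, without the richest sham nucleus 0.043 for C6, and without oligodendrocyte-marker nuclei -1.43 for Mog, which is among the markers that chose those nuclei. For the other genes the cause was not tested.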
